A study of Mus musculus with 12 samples.

Results

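The regions described here are stretches of the mouse genome that appeared among the strongest H3K27ac peaks of every Azin2-/- library and of no wild-type library. In each of 6 peak lists the 30000 peaks of highest score on chromosomes 1 to 19 and X were kept, with ties in score going to the wider peak, and the lists were merged wherever peaks shared 1 bp or more. Of 127635 merged regions, 533 held a peak of all 3 Azin2-/- lists and of no wild-type list, or 0.418% of all regions. The mirror set, held by all 3 wild-type and no Azin2-/- lists, numbered 34, or 0.0266%. Presence in these lists chose the 533 regions, so their ranks, folds and cover are given as a description and no test was made on them.

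The libraries came from adipocyte progenitors of subcutaneous fat, 3 from Azin2-/- mice (replicates 1, 2 and 8) and 3 from wild-type mice (replicates 1, 2 and 2b). Both genotypes were expanded for 1 week and then driven towards fat cells in the same way. The inducing mix held rosiglitazone and dexamethasone at 1 µM each, IBMX at 0.5 mM and insulin at 5 µg/ml for 2 days, and only the insulin was kept for the last 5 days. The sources used here give no strain, age or structure of the knockout allele, and do not say whether each library stands for its own animal. The chromatin was pooled over all cells of a culture, so fewer acetylated cells and less acetylation per cell cannot be told apart.

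Azin2 encodes an antizyme inhibitor, which frees ornithine decarboxylase from antizyme and so favours polyamine synthesis. Acetylation of lysine 27 on histone H3 is laid down by the acetyltransferases p300 and CBP, is removed by histone deacetylases, and is found at promoters and enhancers in use. In fat cell progenitors it is gained at genes of lipid handling as differentiation proceeds, while promoters rich in CpG dinucleotides often carry some of the mark in most cell types.

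Of the 518 regions on chromosomes with promoter windows to compare, 161 (31.1%) overlapped a RefSeq promoter window, the 250 bases before and 50 after an annotated transcription start on GRCm38. The windows of 7 genes described further on are printed in the direction of transcription, since their letters show the base composition that many of these promoters share. Capitals mark GC boxes (GGGCGG, either strand) and CCAAT boxes (CCAAT, either strand). The genes are Foxred2 and Nrm among the regions strongest in all Azin2-/- lists, Creb5, Ckb and Bmp8b from lists of adipocyte regulators and thermogenesis, and Celsr3 and Hcn2 from lists of neuronal genes and ion channels.
Foxred2, chr15:77956673-77956972, minus strand: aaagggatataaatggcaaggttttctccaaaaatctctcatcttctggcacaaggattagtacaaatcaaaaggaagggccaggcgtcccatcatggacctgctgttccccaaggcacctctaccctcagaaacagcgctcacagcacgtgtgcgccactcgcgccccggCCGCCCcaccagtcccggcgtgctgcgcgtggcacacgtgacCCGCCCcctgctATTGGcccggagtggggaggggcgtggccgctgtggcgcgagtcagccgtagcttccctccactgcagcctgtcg
Nrm, chr17:35861068-35861367, plus strand: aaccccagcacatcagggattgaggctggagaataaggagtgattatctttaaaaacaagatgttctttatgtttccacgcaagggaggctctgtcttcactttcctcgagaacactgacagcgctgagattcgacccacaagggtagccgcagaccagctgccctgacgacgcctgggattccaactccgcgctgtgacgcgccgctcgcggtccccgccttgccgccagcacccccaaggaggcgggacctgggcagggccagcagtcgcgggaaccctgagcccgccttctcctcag
Creb5, chr6:53287053-53287352, plus strand: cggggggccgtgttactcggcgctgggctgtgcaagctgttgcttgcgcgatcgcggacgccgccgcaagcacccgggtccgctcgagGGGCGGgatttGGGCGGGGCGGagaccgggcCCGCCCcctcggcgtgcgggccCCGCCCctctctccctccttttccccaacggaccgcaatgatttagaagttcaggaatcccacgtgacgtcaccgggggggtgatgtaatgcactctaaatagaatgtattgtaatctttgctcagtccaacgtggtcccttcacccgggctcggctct
Ckb, chr12:111672289-111672588, minus strand: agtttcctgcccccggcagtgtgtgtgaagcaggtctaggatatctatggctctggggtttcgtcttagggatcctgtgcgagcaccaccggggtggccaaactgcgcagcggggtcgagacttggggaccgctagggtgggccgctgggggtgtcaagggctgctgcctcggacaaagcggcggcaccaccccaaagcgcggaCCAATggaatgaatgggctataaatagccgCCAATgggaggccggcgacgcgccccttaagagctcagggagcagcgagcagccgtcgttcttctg
Bmp8b, chr4:123104911-123105210, plus strand: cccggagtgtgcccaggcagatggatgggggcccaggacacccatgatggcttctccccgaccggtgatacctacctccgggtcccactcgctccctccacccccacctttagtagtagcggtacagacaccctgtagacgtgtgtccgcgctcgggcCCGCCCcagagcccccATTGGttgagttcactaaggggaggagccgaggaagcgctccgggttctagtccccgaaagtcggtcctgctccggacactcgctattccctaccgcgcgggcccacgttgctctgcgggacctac
Celsr3, chr9:108825795-108826094, plus strand: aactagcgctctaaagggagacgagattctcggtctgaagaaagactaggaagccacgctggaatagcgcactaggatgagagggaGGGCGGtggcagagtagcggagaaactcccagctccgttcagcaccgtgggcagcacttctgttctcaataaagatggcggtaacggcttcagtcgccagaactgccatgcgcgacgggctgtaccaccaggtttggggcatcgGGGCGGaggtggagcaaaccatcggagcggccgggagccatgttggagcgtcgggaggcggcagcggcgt
Hcn2, chr10:79716384-79716683, plus strand: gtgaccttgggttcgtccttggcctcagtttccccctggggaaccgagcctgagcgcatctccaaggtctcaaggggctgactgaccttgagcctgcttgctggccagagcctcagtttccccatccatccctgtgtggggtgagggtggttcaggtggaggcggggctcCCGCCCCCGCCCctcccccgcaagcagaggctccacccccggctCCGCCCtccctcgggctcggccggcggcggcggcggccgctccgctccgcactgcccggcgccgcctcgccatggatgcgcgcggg
The 7 windows ranged from 60% to 72.3% G and C and held between 20 and 31 CpG dinucleotides. Creb5 had 5 GC boxes and also held TGACGTCA, the cyclic AMP response element, whereas Ckb had 2 CCAAT boxes and no GC box, and Nrm had neither.

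Over all 209 promoter windows that the Azin2-/- only regions overlapped, which belong to 184 genes, the median was 62.7% G and C and 21 CpG, against 53% and 7 in all 32619 windows. A total of 55% held 20 or more CpG, compared with 26.7% of all windows. Promoters under regions held by all 6 libraries were richer still, with a median of 67.3% G and C and 28 CpG. Regions held by 3 libraries of both genotypes, which numbered 1860, overlapped windows with a median of 63.3% and 22 CpG. The Azin2-/- only promoters therefore lay between all promoters and the constantly marked ones in CpG content, and close to the median for regions held by 3 libraries of both genotypes. Windows that contain GGGCGG made up 70.3% of the 209, 35.9% of all windows and 67.1% of those under regions of 3 libraries of both genotypes. TATAAA was found in 4.78%, against 13.7% of all windows and 4.52% of those under regions of 3 libraries of both genotypes. CACGTG, an E-box, was found in 11%, against 7.2% and 10%, so that for both motifs the windows resembled those of the other regions of 3 libraries. In the same order, CCAAT was found in 35.9% against 37.6% and 38.5%, and TGANTCA, the AP-1 letters, in 5.74% against 7.85% and 4.85%. TGACGTCA occurred in 4 of the 209 windows, or 1.91% against 1.8% and 4.19%. TTGCGCAA, the palindrome bound by C/EBP factors, occurred in 3, or 1.44% against 0.184% and 0.11%, and 3 windows are too few to set these shares apart. All motifs were searched on both strands, and a match is a description of the letters and not of binding. The median G and C content of the promoters in each library's whole list ran from 64.7 to 66% in Azin2-/- and from 65.3 to 66.7% in wild-type, and these ranges overlapped.

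**Figure D1:**
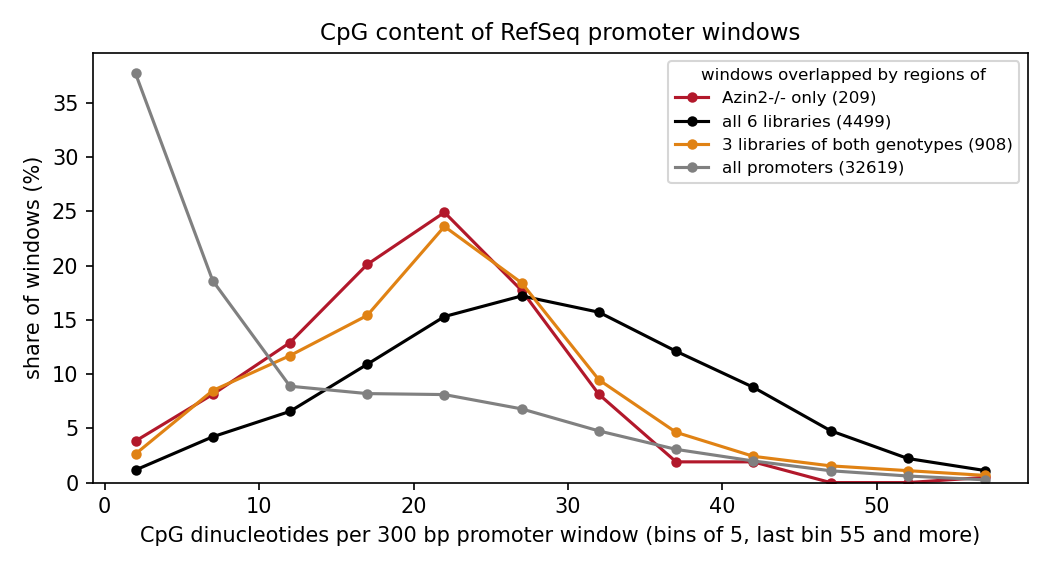
Number of CpG dinucleotides in 300 bp RefSeq promoter windows (x, bins of 5) against the share of windows (y, %), for windows overlapped by Azin2-/- only regions, by regions of all 6 libraries and by regions of 3 libraries of both genotypes, and for all windows. The Azin2-/- only curve peaks at 20 to 24 CpG with 24.9% of its windows, where all promoters have 8.11%.

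The 533 regions were split almost evenly over the genome's compartments. A gene end, meaning either end of a protein-coding gene with 1 kb on each side, was touched by 197 regions (37%), a further 183 (34.3%) lay inside a gene, and 153 (28.7%) lay between genes. Only the outer ends of a gene's span were used. A region over an annotated start within the span therefore counted as inside, as at Foxred2, so these are not shares of promoters. Over all merged regions the shares were 11.5%, 38.6% and 49.8%, and over regions held by all 6 libraries they were 84.4%, 12.6% and 2.96%. Regions of 3 libraries of both genotypes had 45.7%, 29.2% and 25.1%. The share at gene ends was thus lower than in regions held by the same number of libraries across genotypes. Of the 34 wild-type only regions, 3 were at a gene end and 18 between genes. Median length was 1303 bp in the Azin2-/- only regions and 1407 bp in those of 3 libraries of both genotypes. The nearest region held by all 6 libraries was a median of 113 kb away, against 122 kb for regions of 3 libraries of both genotypes. It lay within 10 kb in 8.26% of cases, against 7.42% for regions of 3 libraries of both genotypes and 4.63% for all merged regions. A peak that overlapped a region of all 6 libraries was merged into it. Whether Azin2-/- only regions flanked constantly marked promoters was not tested.

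**Figure D2:**
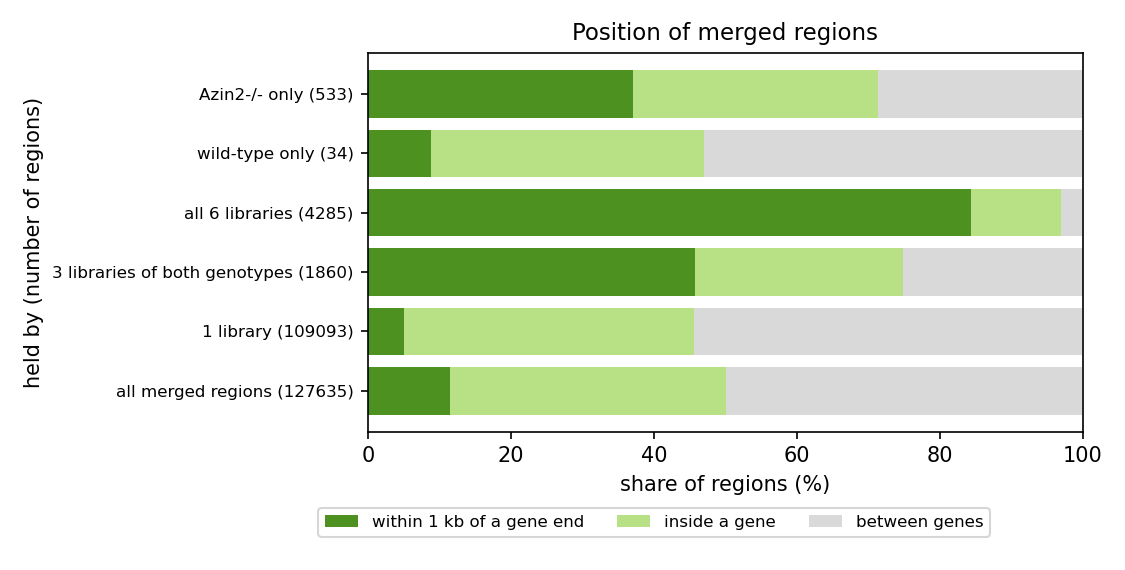
Share of merged regions (x, %) within 1 kb of a gene end, inside a gene and between genes, for sets of regions defined by the libraries that hold them (y, with the number of regions). Azin2-/- only regions have 37% at gene ends, between the 11.5% of all regions and the 84.4% of regions held by all 6 libraries.

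The height of the signal follows from how the regions were chosen and is given as a description. The pileup is the number of fragments stacked at a peak's summit, recovered from the authors' fold and p. The implied background is a median over every 10th listed peak of a library and not a value at these regions. It was 0.269, 0.462 and 1.1 in Azin2-/- replicates 1, 2 and 8 and 0.164, 0.41 and 0.271 in wild-type replicates 1, 2 and 2b. In Azin2-/- the best peak of a region had a median pileup of 12, 6 and 10 fragments and a median fold of 9.57, 4.15 and 3.58. In wild-type the medians were 1, 3 and 2 fragments and folds of 1.78, 2.48 and 2.38. Only regions where the library has a deposited peak of any strength were counted. At regions held by all 6 libraries the median pileups were higher in each library, at 18, 9 and 26 in Azin2-/- and 6, 11 and 23 in wild-type. In Azin2-/- replicate 8 the median fold was nearly the same at both kinds of region, 3.58 in the Azin2-/- only regions and 3.65 at the common ones. In the 34 wild-type only regions the medians were 2, 2.5 and 4 fragments in Azin2-/- and 4, 5 and 4 in wild-type. Azin2-/- replicate 8 thus equalled 2 of the wild-type libraries in pileup, but over a higher background. The median fold there was 2.39, 2.16 and 2.09 in Azin2-/- and 3.88, 3.94 and 3.88 in wild-type. Wild-type replicate 1 had the lowest implied background, and its list of 30000 reached down to score 35, which 39204 of its peaks shared. A best peak at the limiting score of the list was found at 0, 109 and 16 regions in Azin2-/- replicates 1, 2 and 8. It was found at 45, 3 and 0 regions in wild-type replicates 1, 2 and 2b, where only the tie rule kept the peak out of the list.

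**Figure D3:**
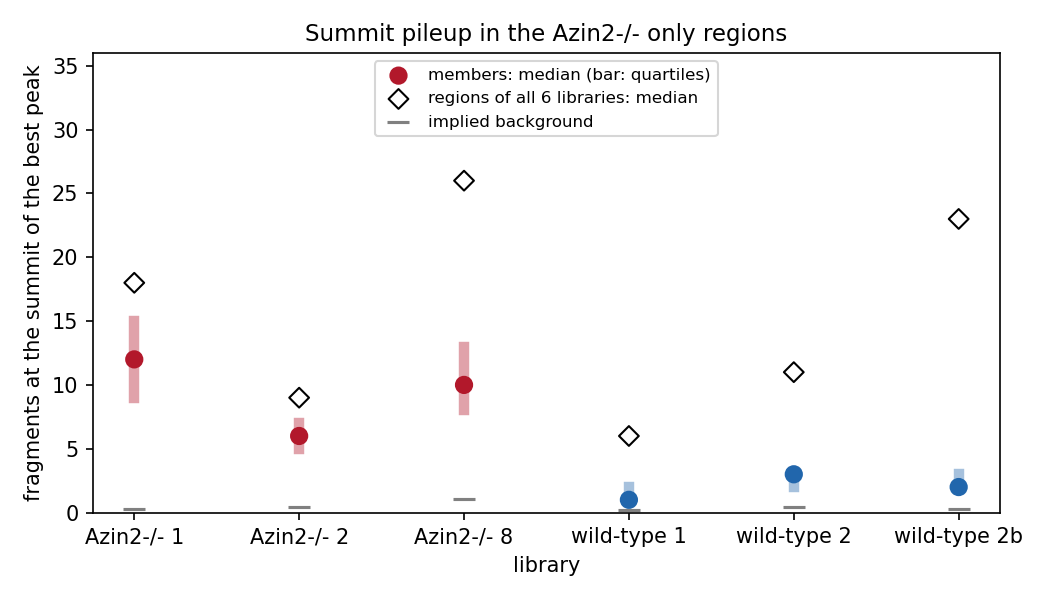
Median pileup in fragments (y) of the best deposited peak in Azin2-/- only regions (filled, with bars from the lower to the upper quartile) and in regions of all 6 libraries (open diamonds), by library (x). Dashes give the median implied background over the listed peaks of each library. Azin2-/- medians are 6 to 12 and wild-type medians 1 to 3, while common regions reach 23 in wild-type replicate 2b.

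A deposited wild-type peak of any strength, however weak, was present in all 3 wild-type libraries at 292 regions (54.8%), in 2 at 188, in 1 at 51 and in none at 2. Wild-type replicates 1, 2 and 2b had such a peak at 347, 490 and 466 regions. At 223 regions (41.8%) the best wild-type peak ranked past 30000 but within 60000. The deposited lists hold very many weak peaks, so these shares were set beside those of other regions absent from all wild-type lists. Among such regions of 1000 to 2000 bp, a peak in every wild-type library was present at 55.3% of the 365 held by 3 Azin2-/- lists, 38.3% of the 1344 held by 2 and 19.2% of the 7415 held by 1. No wild-type peak of any kind was present at 0.548%, 2.46% and 8.02% of them. Weak wild-type peaks were thus more frequent the more Azin2-/- lists held a region, at like length. Within Azin2-/-, the peaks reached a deposited q of 0.05 in all 3 libraries at 281 of the 533 regions. The 2 regions with no wild-type peak of any kind both lay inside genes. Gene length was not taken into account, and 2 regions are too few for a theme. In Cntn4, which encodes the adhesion molecule contactin 4, the region chr6:106314810-106316034 had 7, 7 and 9 fragments in Azin2-/- replicates 1, 2 and 8. In Dpp10, whose product is an auxiliary subunit of potassium channels, chr1:123819974-123821039 had 5, 6 and 7 fragments. In Azin2-/- replicate 1 both stood under the lower quartile of the 533 regions, 9 fragments.

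The list limit itself can be read from its neighbours. The weakest members were at Mrps33, Zfp612 and 48257 bp from Hoxc4, with a rank of 29946, 29846 and 29797 in their weakest Azin2-/- list. Just outside were regions in Spag16, Ttbk1 and near Olfr1355, which were in all Azin2-/- lists but also in 1 wild-type list at rank 29996, 29812 and 29925. Regions in Ckm, Elfn1 and Zbtb7a were absent from wild-type lists and missed 1 Azin2-/- list by ranking 30101, 30141 and 30169. In all, 1071 regions had all Azin2-/- lists and 1 wild-type list.

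The strongest regions were ordered by their worst rank over the 3 Azin2-/- lists, which ran from 2815 to 29946 with a median of 16641. Only 14 regions stayed within the first 5000 peaks of every Azin2-/- list, and 90 within the first 10000. The first in this order, chr9:65123269-65124369, lay in Igdcc4, which encodes an immunoglobulin-type cell surface protein. It had 18, 13 and 15 fragments in Azin2-/- replicates 1, 2 and 8, while wild-type replicates 1 and 2 had 2 and 3 and replicate 2b had no peak. In wild-type replicate 1 the peak had the limiting score of 35. The second touched the end of B4galt7, a galactosyltransferase that helps build the linker of glycosaminoglycan chains on proteoglycans, at chr13:55599576-55600635. Its pileups were 18, 11 and 23 in Azin2-/- and 1, 4 and 3 in wild-type replicates 1, 2 and 2b.

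Further strong regions covered promoters or gene ends. In Foxred2, whose product works in the degradation of misfolded proteins of the endoplasmic reticulum, chr15:77955748-77957311 had 20, 9 and 26 fragments in Azin2-/- and 2, 3 and 4 in wild-type. All 3 Azin2-/- lists span the promoter window printed above. At Nrm, the gene of the inner nuclear membrane protein nurim, chr17:35860956-35861675 had 17, 11 and 28 against 1, 6 and 4. At Cyp2u1, a cytochrome P450 that hydroxylates fatty acids, chr3:131302564-131303786 had 17, 10 and 25, with no peak in wild-type replicate 1 and 3 and 4 fragments in replicates 2 and 2b.

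The other strong regions lay within genes or between them. One was in Egfem1, and one in Cacna2d1, an auxiliary subunit of voltage-gated calcium channels, where Azin2-/- had 17, 9 and 14 fragments and wild-type replicates 2 and 2b had 2 each. A region 264354 bp from Lrig3, the nearest gene, had 22 fragments in Azin2-/- replicate 2, the 18th strongest peak of that whole list, with 19 and 11 in replicates 1 and 8. The remaining regions among the 10 lay between genes, 16925 bp from Card10 and 2327 bp from Cdc20b. Over the 10 regions the authors' fold was 13.7 to 16.4 in Azin2-/- replicate 1, 6.61 to 15 in replicate 2 and 3.71 to 5.73 in replicate 8, and at most 3.49 in a wild-type library.

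**Figure D4:**
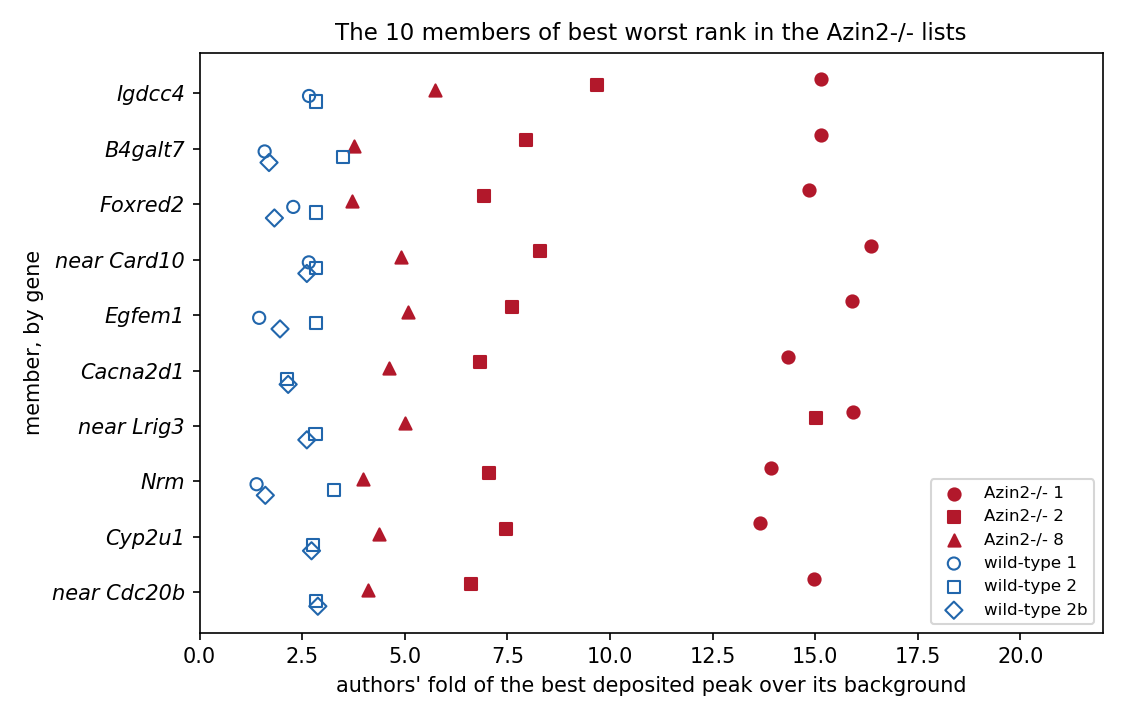
Fold of the best deposited peak over its local background (x, the authors' value) in each library for the 10 Azin2-/- only regions whose worst rank over the Azin2-/- lists is best (y, by gene at, around or nearest the region). Wild-type symbols stay at or under 3.49, and a missing symbol means that the library has no deposited peak there.

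By breadth, 5 regions stood out in the stretch that all 3 Azin2-/- lists covered. It was 1507 bp in Zfp536, a zinc finger repressor known from neuronal differentiation, 1448 bp at Hcn2, a pacemaker channel, and 1376 bp in Ano8, an anoctamin. It was 1363 bp in a region 19318 bp from Nrf1 and 1359 bp at Mfsd12, which carries cysteine into lysosomes and melanosomes. The median over the 533 regions was 540 bp, and in 16 of them the Azin2-/- peaks met in the merged region without a stretch common to all 3. At Zfp536, chr7:37768583-37771412, cover was 2196, 2556 and 1784 bp in Azin2-/- replicates 1, 2 and 8, and pileups were 15, 7 and 13 against 1, 3 and 3 in wild-type. At Hcn2, chr10:79715930-79717895, cover was 1966, 1456 and 1513 bp and pileups were 12, 10 and 11 against 1, 3 and 2.

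Gene lists give the functional spread. Of 21627 protein-coding genes, 228 (1.05%) had an Azin2-/- only region at a gene end and 438 (2.03%) had one in the gene or within 1 kb of it. The pathway that Azin2 serves had none: 0 of 25 genes of polyamine and hypusine metabolism, although 10 of them had a region of all 6 libraries at an end. Azin2 itself carried a listed peak in every library, at rank 13121, 19302 and 4845 in Azin2-/- replicates 1, 2 and 8 and 2267, 12400 and 6665 in wild-type replicates 1, 2 and 2b. A peak there does not test the genotype labels. The same absence held for 35 genes of lipid storage, 35 of the extracellular matrix and 18 histone acetyltransferases, none of which had an Azin2-/- only region in the gene or at its ends. Beside the background of 2.03%, lists of this size are too short for a count of 0 to stand apart.

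Among regulators of the mark, Hdac3, a class I histone deacetylase, had a region at a gene end that it shares with Rell2 and Fchsd1. Its pileups were 12, 5 and 20 in Azin2-/- and 1, 3 and 3 in wild-type. It was the 1 gene of 24 in the list of deacetylases and their partners with such a region at a gene end. From the 16 genes of acetyl-CoA supply only Acat2, the cytosolic thiolase, was included, with 11, 5 and 18 fragments against 1 and 3 in wild-type replicates 1 and 2 and no peak in 2b. It stood near the limit, ranking 28713 in Azin2-/- replicate 8.

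Of 27 adipogenic transcription factors, 2 were included. Creb5, a leucine zipper factor of the CRE-binding family, had 15, 13 and 15 fragments in Azin2-/- and 2, 6 and 4 in wild-type at chr6:53286242-53288478, over the promoter shown above. Stat5b, which relays growth hormone signals, had 4, 4 and 6 fragments in its body, and wild-type replicate 2 also had 4, so that counts overlapped between genotypes there. The list of fatty acid oxidation and thermogenesis had 2 of 33. Bmp8b, a growth factor of thermogenic fat, had 10, 6 and 7 fragments against 2, 1 and 1 at chr4:123104277-123106586. Ckb, the brain-type creatine kinase that also takes part in creatine cycling of brown fat, had 12, 6 and 12 against 2, 3 and 3 at chr12:111670755-111673016. None of the 40 genes of the BMP, TGF-beta and activin list, which leaves out Bmp8b, was included.

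Growth and patterning genes gave isolated cases. From 47 Wnt genes, Wnt11 and Wnt3a, both secreted ligands, had a region inside the gene with 9, 5 and 6 and 4, 8 and 12 fragments in Azin2-/-. Igf2bp1, an RNA-binding protein of fetal growth, was 1 of 30 insulin and IGF genes, with 8, 7 and 9. Gnas, the imprinted locus of the stimulatory G protein subunit, was 1 of 25 imprinted genes, with 9, 10 and 8 fragments against 2, 2 and 3. The 63 homeobox and patterning genes had 3, Zfp536, the eye and forebrain factor Six3 and the gonadal factor Dmrt1. Dmrt1 held 2 regions, the one at its end with 16, 9 and 9 fragments against 2, 3 and 4.

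Counting regions anywhere in a gene or at its ends, genes of excitable cells gave the largest shares of the 23 lists. In the synapse and neuron list 5 of 35 genes (14.3%) had an Azin2-/- only region, and in the ion channel list 4 of 42 (9.52%), against 2.03% of all genes. These counts are small, no test was made on them, and the genes are longer: a median of 60.4 and 49.7 kb against 17.3 kb for all genes. At gene ends, where length counts less, that order was lost. The shares were 2 of 35 (5.71%) and 1 of 42 (2.38%) against 1.05% of all genes, below the 7.69% of muscle markers, 6.25% of acetyl-CoA supply and 6.06% of fatty acid oxidation and thermogenesis, which rest on 1, 1 and 2 genes. Apba3, an adaptor protein of the X11 family, shared its region with Tjp3 and had 10, 4 and 7 fragments against 1, 2 and 2. Celsr3, an atypical cadherin that guides axons, had 8, 5 and 10 at chr9:108825327-108826701, with no peak in wild-type replicate 1 and 2 and 3 fragments in replicates 2 and 2b. Inside genes, Grin2c, an NMDA receptor subunit, had 10, 6 and 13 against 1, 1 and 2, Map2, a dendritic microtubule protein, had 7, 7 and 9 against 1, 2 and 1, and Cplx2, a regulator of vesicle fusion, had 13, 5 and 18. The calcium channels Cacna1d and Cacna1h had 13, 5 and 12 and 12, 6 and 10 fragments, and the potassium channel Kcnh2 had 5, 4 and 7. Schwann and neural crest markers, a list of 8 genes, had a listed peak at a gene end in 6, 5 and 4 genes in Azin2-/- replicates 1, 2 and 8. In wild-type replicates 1, 2 and 2b the number was 1, 4 and 2. Several other marker lists, given below, leaned the same way. Whether such cells had a part in the neuronal regions was not tested.

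Markers of cell types were mostly outside the set. None of 13 adipocyte markers, 10 endothelial, 10 immune, 8 Schwann and neural crest and 8 epithelial markers, nor of 12 housekeeping genes, had an Azin2-/- only region. Beside the 2.03% of all genes, such short lists cannot set a count of 0 apart. Among 21 progenitor markers only Icam1, an adhesion molecule of committed preadipocytes, was included, with 4, 4 and 8 fragments in Azin2-/- and 2, 4 and 2 in wild-type, so the genotypes overlapped in pileup. Its Azin2-/- peaks had no stretch in common. Among 13 muscle markers Myod1, the master factor of skeletal muscle, was included, with 11, 6 and 11 against 2, 2 and 3 fragments at chr7:46376570-46377682. In wild-type replicate 1 its best peak ranked 30783, just past the limit and among the peaks that share the limiting score. Over the whole muscle list, 5, 5 and 3 genes had a listed peak at a gene end in Azin2-/- replicates 1, 2 and 8 and 0, 0 and 2 in wild-type replicates 1, 2 and 2b. The summed cover of its genes was 5539 to 13243 bp in Azin2-/- and 1219 to 10470 bp in wild-type, and no library had a peak at an end of Acta1, Mef2c, Myf5, Myf6, Myh1, Myh3 or Tnnt3. Whether muscle cells in the cultures had a part in the Myod1 region was not tested. The lean was not particular to muscle. In the same order, immune markers gave 3, 3 and 2 against 0, 2 and 1, and epithelial markers 5, 3 and 4 against 1, 3 and 3. Endothelial markers gave 4, 3 and 2 against 1, 3 and 2, while housekeeping genes gave 7, 6 and 8 against 6, 8 and 8. Listed peaks covered most in Azin2-/- replicate 1 (30 Mb) and least in wild-type replicate 1 (18.6 Mb). For the labelled cell type, 6 to 11 of the 21 progenitor markers and 2 to 6 of the 13 adipocyte markers had a listed peak at a gene end in each library, and 14 and 8 had one in some library. Adipoq, Cd36, Cidec, Retn and Slc2a4 had no listed peak at a gene end in any library, and neither did the progenitor genes Pdgfra, Dpp4, Ly6a and Pi16.

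The regions were scattered along the chromosomes, with local clusters. Per 1000 merged regions the number ran from 2.86 on chromosome 6 to 5.25 on chromosome 9. The median distance to the next such region was 1.12 Mb, and 56 of the 533 lay within 100 kb of another. These distances were not measured in other sets of regions. Clustering of the Azin2-/- only regions therefore cannot be told apart from that of genes and of listed peaks. The densest cluster had 8 regions in 469 kb of chromosome 10, from 80897025 to 81365743, among 72 merged regions and 29 genes. It included Mfsd12, Apba3 with Tjp3, Slc39a3, a zinc importer, Matk, a kinase that restrains Src, Zfr2, Tmprss9 and 2 regions at Hmg20b, a subunit of a corepressor complex with lysine demethylase activity. Clusters of 4 within 1 Mb lay on chromosomes 8, 9, 17, 18 and 19. That on chromosome 9, from 108093346 to 108826701, included Apeh, Ccdc71, the laminin chain gene Lamb2 and Celsr3, and that on chromosome 19, from 4268953 to 5086098, included Ssh3 with Ankrd13d, Ctsf, Peli3 and Tmem151a. Regions at gene ends had a median of 5 genes within 100 kb on either side, those inside genes 3 and those between genes 1.

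Position and strength went together only loosely within the set. Regions at gene ends had a median pileup of 13, 6 and 12 in Azin2-/- replicates 1, 2 and 8, those inside genes 10, 6 and 9, and those between genes 11, 5 and 8. In wild-type replicates 1, 2 and 2b the medians were 2, 3 and 3 at gene ends, 1, 3 and 2 inside and 1, 2 and 2 between. A deposited peak of some strength was present in all 3 wild-type libraries at 68% of the regions at gene ends, 49.7% of those inside genes and 43.8% of those between genes. Regions at gene ends were therefore the ones where weak wild-type peaks were most frequent. They were also longer, with a median of 1384 bp against 1260 bp both inside and between genes, and length was not matched here.

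The number of Azin2-/- only regions changed with the length of the lists and with the libraries required. With the 5000 strongest peaks there were 158 Azin2-/- only and 174 wild-type only regions, and only 14 of the 533 overlapped one of the 158. With 10000 the counts were 208 and 60, with 15000 370 and 31, and with 60000 502 and 141. The excess over wild-type only regions thus appeared between 5000 and 10000 peaks. Leaving out 1 library drops 1 condition of the rule, so a higher count is largely built in. There were 769 Azin2-/- only regions without Azin2-/- replicate 1, 1410 without replicate 2 and 1928 without replicate 8. Without wild-type replicates 1, 2 and 2b there were 623, 982 and 1069. Between 526 and 533 of the 533 regions overlapped one of those found in each of these settings. Wild-type only regions in the same settings numbered 170, 37 and 38, and 329, 458 and 367. Azin2-/- replicate 1 had 54847 deposited peaks at a q of 0.05 or less and the other libraries 13843 to 21544. The part of depth or enrichment in these counts was not tested.

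**Figure D5:**
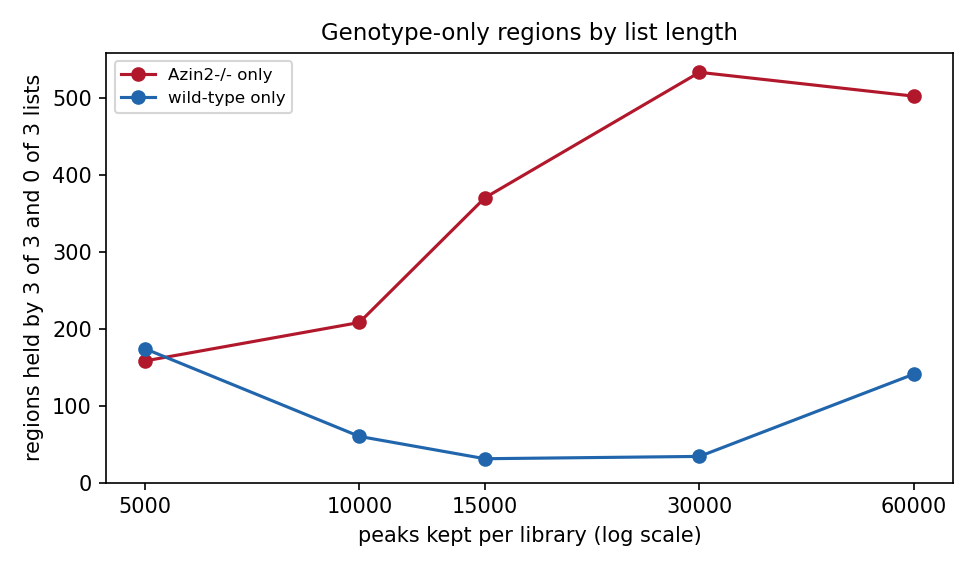
Number of regions held by all libraries of one genotype and none of the other (y) against the number of peaks kept per library (x, log scale). Azin2-/- only regions go from 158 at 5000 peaks to 533 at 30000, while wild-type only regions go from 174 to 34 and then to 141 at 60000.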

How the data were processed

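H3K27ac ChIP-seq peak lists of 3 Azin2-/- and 3 wild-type libraries were used, and the 6 input libraries were not analysed here. Per the labels, each list belongs to 1 library and the build is GRCm38 (mm10), the latter from the submitters' processing notes. Aligner, peak caller and use of input: not given in the sources used here. The deposited columns hold, for each peak, an integer score, the fold (a ratio to local background at the summit) and p-values and q-values as -log10. In nearly all peaks the score equals 10 times -log10 p, rounded down, and all of these are the authors' values. Lists held between 741843 and 1216000 peaks on chromosomes 1 to 19 and X.

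Ranking, merging and counting were done in Python 3.11.15 (numpy 2.4.6, pandas 2.3.3, scipy 1.17.1), and merging and pileup recovery were tested on simulated data. Fold and p imply a whole pileup k and a background b if fold is (k + 1)/(b + 1). With a tolerance of 0.001 on the log10 scale, 100% of every 10th listed peak gave a whole k. Read totals are unknown, so no interval is given. Genes, promoter windows and their strands came from RefSeq on GRCm38.p6, which gave spans for 21627 protein-coding genes. The tie at the list limit was largest in wild-type replicate 2, where 44.7% of the list shared the limiting score. Wild-type replicates 2 and 2b had a Jaccard index (shared over joint length) of 0.157, within the 0.119 to 0.232 of all pairs, and were kept as separate libraries.

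Regions, gene lists and alternatives were chosen with earlier results of these data known, and the lists support no claim of enrichment. Promoter windows of chromosome 18 were not analysed here. The rule for named regions took the 10 of best worst rank, the 5 of longest common stretch, those without any wild-type peak, those on each side of the limit, members at an end of a listed gene, and clusters of 3 or more within 1 Mb. Regions inside listed genes were added after their values were seen, and not every region under the rule is printed. The comparison among regions of 1000 to 2000 bp was chosen after the data were seen. A result on 1 withheld item is not reported here.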

Additional observations from a re-analysis of the deposited data

How the results depend on the processing

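No paired analysis was possible because the counts of regions come from no test, and replicate numbers 1 and 2 are the only ones both genotypes share. Counts were taken to hold when within 1.5 times the reported one, and shares when inside its 95% Wilson interval, which covers counting error only. The number of Azin2-/- only regions held in 10 of 20 alternatives. Among them were another rule for ties (525), a minimum cover of 200 bp (535), peaks set to 250 bp either way from the summit (522) and a q of 0.05 (393) or 0.01 (357). A held count did not mean the same regions. In these 5 settings 480, 533, 486, 281 and 187 of the 533 overlapped. With 15000 and 60000 peaks, where the count also held, 238 and 310 overlapped. The count was 158 with 5000 peaks, 208 with 10000, 299 with lists of 15 Mb, 2154 without Azin2-/- replicate 8 and wild-type replicate 1 together, and 623 to 1928 without 1 library. Wild-type only regions numbered 174, 60, 75 and 344 in the first 4 of these settings, 141 with 60000 peaks, 22 and 5 at a q of 0.05 and 0.01, and 37 to 458 without 1 library. Lists of 60000 peaks in wild-type against 30000 in Azin2-/- gave 310 and 174, and lists of 60000 in Azin2-/- against 30000 in wild-type gave 817 and 28; both were chosen after the data were seen. These 310 overlapped 310 of the 533. The share of Azin2-/- only regions at gene ends was 37% as reported and 69%, 54.8%, 44.6% and 24.9% with 5000, 10000, 15000 and 60000 peaks. It was 43.8% and 47.3% at a q of 0.05 and 0.01, 48.8% with lists of 15 Mb, 26.4% without Azin2-/- replicate 8 and wild-type replicate 1, 28.7% with the longer wild-type lists, 43.5% with ends of 2 kb, and 25.3 to 54.5% without 1 library. The cause of these shifts was not tested. The share between genes moved in 15 of 22 alternatives (7 higher, 8 lower, from 9.49 to 39.8%), and the share with a peak in every wild-type library in 16 of 20 (10 higher, 6 lower, from 39.4 to 89.2%). Read totals are unknown. The median listed peak stood 3 fragments high in wild-type replicate 1 and 4 to 8 in the other libraries. Among single libraries, leaving out wild-type replicate 1 moved the count of Azin2-/- only regions least, to 623, though leaving out any library loosens the rule.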

Other observations

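A few gene ends outside the gene lists are given as values only. They were chosen after their values were seen, out of 228 genes with an Azin2-/- only region at an end, so they form no group and support no theme. Bard1, the partner of BRCA1, had 17, 8 and 27 fragments in Azin2-/- replicates 1, 2 and 8, against 2 and 1 in wild-type replicates 1 and 2 and no peak in 2b. Polh, a polymerase that copies past ultraviolet damage, shared a region with the nuclear exporter Xpo5 and had 14, 7 and 32 against 2, 4 and 6. Dck, which salvages deoxynucleosides, had 25, 8 and 28 against 2, 3 and 7. Kif23, a motor of cytokinesis, had 14, 6 and 36 against 2, 3 and 7. Pileups are not scaled to the local background. The fold at Kif23 was 2.1 in Azin2-/- replicate 8 and 2.18 in wild-type replicate 1. At Polh it was 2.8 in Azin2-/- replicate 8 and 3.38 in wild-type replicate 2, so the genotypes overlapped in fold at both genes. Npy, which encodes neuropeptide Y, had 14, 7 and 8 and 1 in each of wild-type replicates 1 and 2b, with no peak in replicate 2. The transcription factor gene Fezf2 had 10, 7 and 9, no peak in wild-type replicate 1 and 2 and 3 fragments in replicates 2 and 2b.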
